A study of Homo sapiens with 12 samples.

Results

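The NSP adaptors and the CAS scaffold proteins were followed at the transcript level in HEK293 cells, a human embryonic kidney cell line, transfected with plasmids that express parts of PEG10, a domesticated retrotransposon. The members are the 3 NSP genes *SH2D3A*, *SH2D3C* and *BCAR3* and the 4 CAS genes *BCAR1*, *NEDD9*, *EFS* and *CASS4*, that is 7 of 26485 genes in the count table. They were taken by name as 2 families of binding partners. *SH2D3C* and *CASS4* brought the families into view because of their own values, the rise of *SH2D3C* with gag-pol and the fall of *CASS4* with NC, each relative to control. Those 2 contrasts, and every comparison of constructs with one of their groups for the same gene, are therefore described here without a test. The other 5 members came in as relatives. The counts of 6 of the 7 members passed the filter on low counts, and *EFS* did not.

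The 4 groups were wild-type HEK293 cells that received 1 μg of a plasmid and were collected 48 hr later. The plasmid carried PEG10 gag-pol, PEG10 gag, the PEG10 nucleocapsid (NC) or, in the control, LifeAct-Dendra2, a fluorescent protein joined to an actin-binding peptide. Each group had 3 replicates, which the paper calls biological. Their numbers in the sample titles were taken here to mark passage and harvest. The control therefore carried a transfected, actin-binding fusion protein and was not an untransfected culture. All cells expressed their own PEG10 as well. Poly(A) RNA was counted per gene, and the library totals ran from 30625725 to 45316749 counts. Values are given as CPM, counts scaled to the library's total and TMM factor. A gene was called at an adjusted p under 0.05 in the quasi-likelihood test of edgeR, adjusted by Benjamini-Hochberg over all 17176 genes tested. The model held terms for construct and for replicate number and used the 12 libraries together, and the comparisons with control share its 3 libraries. Cultures were harvested whole, so a change in every cell and a change in the share of cells that took up plasmid cannot be told apart.

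NSP proteins are adaptors with an SH2 domain, which binds phosphorylated tyrosines of receptors and other proteins, and a C-terminal domain folded like a guanine nucleotide exchange factor that locks onto CAS proteins. CAS proteins, the Crk-associated substrates, have an SH3 domain, a long substrate region with many tyrosines that SRC-family kinases phosphorylate, and a C-terminal domain that holds the NSP partner. Phosphorylated CAS recruits CRK adaptors at focal adhesions, and through them exchange factors for RAC1 and RAP1, which connects integrins and growth factor receptors to cell spreading and migration.

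In the control libraries *PEG10* took 0.0230% to 0.0346% of all counts. Its share was 2.80% to 7.35% in the gag-pol libraries, 3.78% to 6.10% in the gag libraries and 0.238% to 0.389% in the NC libraries. This fits the labels of control and NC, but the gag-pol and gag ranges overlapped and do not tell these labels apart. Between NC and either gag-pol or gag, the construct and the *PEG10* share of counts differed together. Their parts in those comparisons cannot be told apart. The HEK293 markers *VIM*, *KRT18*, *PAX2*, *NEFL* and *MYC* were between 13.8 and 687 CPM in every library and *NEFM* was at 1.12 to 3.25 CPM. Of 9 markers of other cell types, *RBFOX3*, a neuronal splicing factor, was at 6.05 to 15.4 CPM and the other 8 were at or below 1.63 CPM, with *PTPRC* at 0 in 10 libraries and *HBB* at 0 in 11. The summed level of these 9 markers was 10.4 to 10.7 CPM in control libraries, 12.7 to 16.9 CPM in gag-pol, 9.69 to 14.9 CPM in gag and 10.7 to 12.2 CPM in NC libraries. The part of these markers in the results was not tested. Control replicate 3 had the highest control values of *SH2D3C*, *BCAR1*, *NEDD9* and *CASS4*, and the lowest *MYC* count of all libraries.

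*SH2D3C* (ENSG00000095370.20) spans bases 127738317 to 127778710 of chromosome 9 (GRCh38, reverse strand). RefSeq's table of start sites (GRCh38.p14) holds 5 starts for it, and a count per gene does not say which of them was used. The stretches before its outermost and its innermost start are shown because *SH2D3C* had the largest positive difference from control among the members and its annotated transcripts begin between these ends. Capitals mark the GC box GGGCGG on either strand. Bases in any annotated exon are left out.
*SH2D3C* outermost start, chr9:127778711-127778916, reverse strand: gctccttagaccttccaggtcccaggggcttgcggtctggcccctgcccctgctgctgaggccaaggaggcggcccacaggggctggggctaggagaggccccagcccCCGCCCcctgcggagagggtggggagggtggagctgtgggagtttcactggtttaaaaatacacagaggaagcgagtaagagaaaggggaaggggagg
*SH2D3C* innermost start, chr9:127755305-127755554, reverse strand: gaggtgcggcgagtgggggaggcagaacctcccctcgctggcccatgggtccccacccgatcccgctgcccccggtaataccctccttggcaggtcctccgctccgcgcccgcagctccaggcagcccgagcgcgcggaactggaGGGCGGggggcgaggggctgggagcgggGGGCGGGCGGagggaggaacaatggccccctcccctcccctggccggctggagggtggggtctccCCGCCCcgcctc
The outer stretch holds 5 CG dinucleotides in 206 bases, or 6 in the full 250 bases with exon bases kept. The inner one holds 22 in 250 bases. The median over 35116 RefSeq windows of 250 bases, with exon bases kept, was 11 (quartiles 3 and 23). A GC box is present in 42.6% of those windows. Neither stretch holds the CCAAT box (CCAAT, in 32.0% of windows) or the TATA box (TATAAA, in 10.7%) on either strand.

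The families are expressed unequally in HEK293 cells. Per kilobase of merged exon, which allows genes to be compared, the control level was 10.6 ± 1.79 CPM per kb for *BCAR1* (SD, n = 3), the founding CAS scaffold also known as p130Cas. It was 4.54 ± 0.985 for *SH2D3C* (SD, n = 3), the NSP member also named SHEP1 or CHAT. *SH2D3A* was at 1.83 ± 0.148, *BCAR3* at 1.56 ± 0.136, *CASS4* at 1.13 ± 0.547, *NEDD9* at 0.764 ± 0.411 and *EFS* at 0.0537 ± 0.0109 CPM per kb (SD, n = 3 each). In the control libraries the range of *BCAR1* lay above that of *SH2D3C*, and *SH2D3C* above the rest. The range of *CASS4*, 0.661 to 1.73 CPM per kb, overlapped those of *SH2D3A*, *BCAR3* and *NEDD9*, so the order of *CASS4* among these 3 is not resolved. *EFS* lay below all other members in every group. These levels rest on GENCODE release 44 exons, and the annotation the authors counted on is not given in the sources used here.

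**Figure D1:**
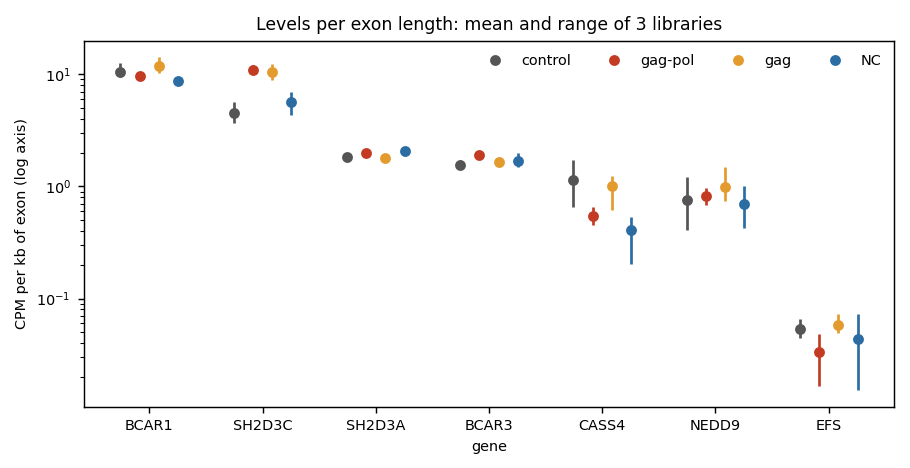
Level of each member as CPM per kilobase of merged exon on a log axis, by construct; points are means of 3 libraries and lines run from the lowest to the highest library. *BCAR1* and *SH2D3C* are highest, and *SH2D3C* moves from 4.54 CPM per kb in control to 10.95 with gag-pol and 10.5 with gag, into the range of *BCAR1*.

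Among the NSP genes, *SH2D3C* was at 17.2, 19.8 and 26.1 CPM in control replicates 1 to 3. It was at 56.3, 47.96 and 47.8 CPM with gag-pol and at 47.6, 40.9 and 57.0 CPM with gag. With NC it was at 20.1, 25.6 and 32.4 CPM. All 6 gag-pol and gag libraries lay above all 6 control and NC libraries, and the ranges of gag-pol and gag overlapped, as did those of NC and control. Groups without overlap were found for 13.5% of all genes between gag-pol and control and for 7.09% between gag and control. This share was 6.92% between NC and gag-pol and 14.4% between NC and gag. Against control, *SH2D3C* was 2.46-fold higher with gag-pol, a log2 fold change of 1.30 (SE 0.14), the value for which it is taken to have been chosen. It was 2.32-fold higher with gag, a log2 fold change of 1.21 (SE 0.14), and 1.24-fold higher with NC, 0.31 (SE 0.14), values given as a description because they reuse the control libraries. The difference from control was positive in 3 of 3 replicate numbers for each construct. On the log2 scale the 3 differences lay between 0.87 and 1.71 for gag-pol, between 1.04 and 1.47 for gag and between 0.23 and 0.37 for NC.

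The comparison of *SH2D3C* between gag and NC compares neither group of the contrast taken to have chosen it, although the other libraries enter the replicate terms and the spread of the fit. If a contrast with gag or NC libraries chose the gene instead, this test reuses values of that choice. *SH2D3C* was lower with NC than with gag by 0.90 on the log2 scale (SE 0.14, 95% interval 0.62 to 1.19), with an adjusted p of 0.00077 in edgeR, and was lower with NC in 3 of 3 replicate numbers. Fitted on the gag and NC libraries alone, the adjusted p was 0.00035 in edgeR. The groups did not overlap, as for 14.4% of all genes in this comparison. Without any 1 library this difference kept an adjusted p between 6.5e-06 and 0.011 in edgeR, and without the replicate number in the model the adjusted p was 0.40 at nearly the same difference, 0.90, in a fit that called 1 of 17176 genes. Gag-pol and gag differed in *SH2D3C* by 0.09 (SE 0.13), higher with gag-pol in 2 of 3 replicate numbers, and this difference turned to -0.11 without gag-pol replicate 1. NC was lower than gag-pol by 0.99 on the log2 scale (SE 0.13).

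Neither of the other NSP genes was called in any comparison by edgeR. *SH2D3A*, also named NSP1, was at 9.97, 11.2 and 9.61 CPM in control and at 11.98, 10.2 and 11.5 CPM with gag-pol. It was at 9.42, 9.88 and 10.6 CPM with gag and at 10.7, 11.9 and 11.9 CPM with NC. The NC libraries thus lay above the gag ones, and these groups did not overlap for 14.4% of all genes. *SH2D3A* was called in none of the 6 comparisons by edgeR or by DESeq2, and none of its 6 p-values was under 0.05 before adjustment in edgeR. The 95% interval of its log2 difference from control was -0.15 to 0.41 for gag-pol, -0.32 to 0.24 for gag and -0.11 to 0.44 for NC. *BCAR3*, also named NSP2 or AND-34 and first described in anti-estrogen resistance, was at 11.9, 10.4 and 10.1 CPM in control and at 13.5, 13.6 and 12.9 CPM with gag-pol. These groups did not overlap, as for 13.5% of all genes. The log2 fold change of 0.30 (SE 0.13) had an adjusted p of 0.14 in edgeR (0.033 before adjustment). Its values with gag, 11.1 to 11.7 CPM, and with NC, 10.2 to 13.7 CPM, overlapped those in control. Gag-pol also lay above gag without overlap, as for 12.7% of all genes, by a log2 difference of 0.23 (SE 0.13, adjusted p = 0.31 in edgeR).

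**Figure D2:**
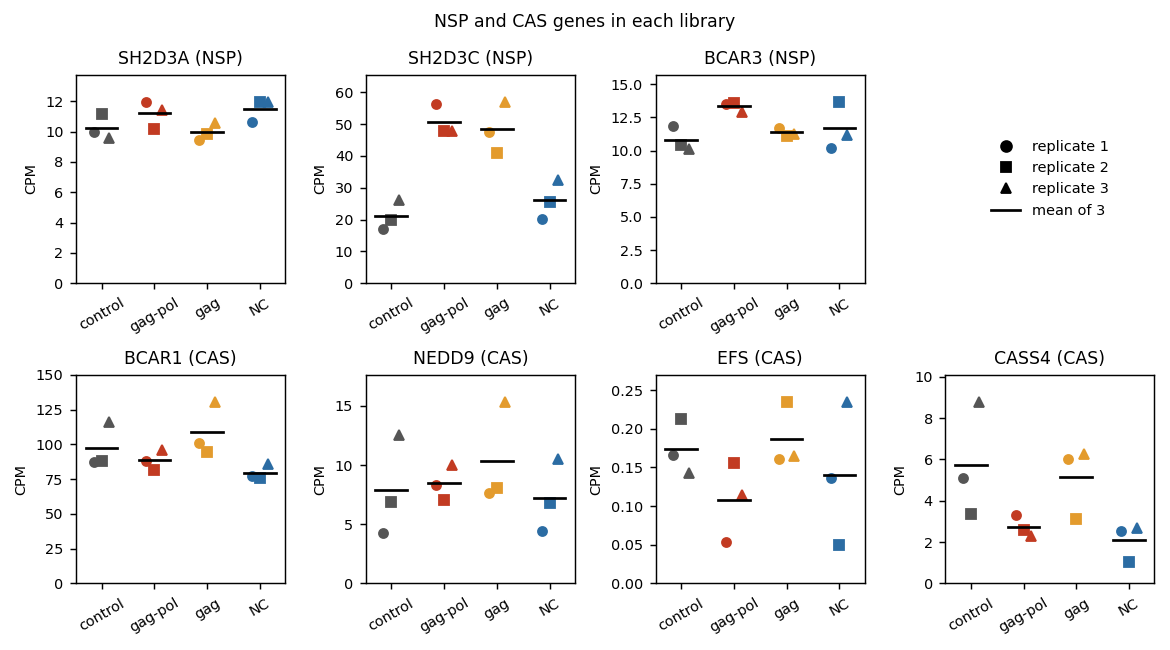
CPM of each member in every library, by construct; symbols give the replicate number, bars the mean of 3, and each axis starts at 0. The gag-pol and gag libraries of *SH2D3C* sit between 40.9 and 57.0 CPM and the control and NC libraries between 17.2 and 32.4 CPM, while *CASS4* is at or below 3.32 CPM in all gag-pol and NC libraries.

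Summed per exon length, the NSP sum lay higher in every gag-pol and gag library than in any control library, and most of it was *SH2D3C*. The NSP sum was 7.94 ± 0.811 CPM per kb in control, 14.9 ± 1.19 for gag-pol, 13.9 ± 1.83 for gag and 9.37 ± 1.52 for NC (SD, n = 3 each). The sum of the 4 CAS transcripts was 12.5 ± 2.69 CPM per kb in control, 11.0 ± 0.912 for gag-pol, 13.9 ± 2.72 for gag and 9.80 ± 1.00 for NC (SD, n = 3 each). *SH2D3C* made up 51.5% to 63.9% of the NSP sum in control libraries, 72.5% to 74.8% in gag-pol libraries, 72.4% to 77.8% in gag libraries and 56.2% to 65.1% in NC libraries. *BCAR1* made up 80.8% to 87.3% of the CAS sum in control and between 83.7% and 90.4% with the 3 PEG10 constructs. These sums contain the values for which *SH2D3C* and *CASS4* are taken to have been chosen and were not tested.

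Among the CAS scaffolds, *BCAR1* was the one called between constructs by edgeR as fitted here. *BCAR1* (ENSG00000050820.17) spans bases 75228181 to 75268053 of chromosome 16 (reverse strand). It was at 87.5, 87.8 and 116 CPM in control, at 88.2, 81.3 and 96.1 CPM with gag-pol, at 101, 94.5 and 130 CPM with gag and at 77.0, 75.8 and 85.9 CPM with NC. Every NC library lay below every control and every gag library, and the gag-pol and gag ranges overlapped. Groups did not overlap for 9.5% of all genes between NC and control and for 14.4% between NC and gag.

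With NC, *BCAR1* fell by 0.28 on the log2 scale relative to control (SE 0.08), with an adjusted p of 0.026 in edgeR, and was lower in 3 of 3 replicate numbers. The groups did not overlap, as for 9.5% of all genes. It was 1 call among 4 members tested in this comparison, where 11.2% of all genes were called, 6.04% higher and 5.15% lower with NC. The call was lost when control replicate 2 or 3 was left out (adjusted p = 0.076 and 0.15 in edgeR) and when NC replicate 1 or 3 was (0.069 and 0.14), with log2 differences between -0.29 and -0.22. *BCAR1* was lower with NC than with gag by 0.44 on the log2 scale (SE 0.08), with an adjusted p of 0.0011 in edgeR, which ran from 0.00029 to 0.013 when 1 library was left out. *BCAR1* and *SH2D3C* were the 2 of 5 members called between NC and gag, both lower with NC, where 16.9% of all genes were called, 8.76% higher and 8.12% lower with NC. *SH2D3C* is a gene that brought the families into view, and *BCAR1* was the only call among the members that came in as relatives. With gag-pol, *BCAR1* was lower than with gag by 0.29 on the log2 scale (SE 0.08), with an adjusted p of 0.030 in edgeR. This was 1 call among 5 members, where 6.46% of all genes were called, 3.03% higher and 3.42% lower with gag-pol. The call was lost without any 1 of the 6 gag-pol and gag libraries, with adjusted p-values of 0.053, 0.067 and 0.21 in edgeR without gag-pol replicates 1 to 3 and 0.11, 0.057 and 0.16 without gag replicates 1 to 3. With no replicate number in the model, the adjusted p of *BCAR1* in edgeR was 0.68 for NC against control, 0.40 for NC against gag and 0.81 for gag-pol against gag, where at most 2 of 17176 genes were called. *BCAR1* relative to control was -0.12 (SE 0.08, adjusted p = 0.32 in edgeR) with gag-pol, which became -0.17 or -0.074 when gag-pol replicate 1 or 3 was left out, and 0.16 (SE 0.08, adjusted p = 0.37 in edgeR) with gag. NC and gag-pol differed by -0.15 (95% interval -0.31 to 0.01, adjusted p = 0.54 in edgeR).

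*CASS4* (ENSG00000087589.17), which encodes the CAS protein also named HEPL, spans bases 56412112 to 56460387 of chromosome 20 (forward strand). Its raw counts were low, 42 to 307 per library. It was at 5.08, 3.35 and 8.78 CPM in control, at 3.32, 2.60 and 2.31 CPM with gag-pol, at 6.01, 3.13 and 6.24 CPM with gag and at 2.54, 1.04 and 2.697 CPM with NC. All gag-pol and NC libraries lay below all control libraries, narrowly so for gag-pol replicate 1, and the gag libraries overlapped the control ones. Groups did not overlap for 13.5% of all genes between gag-pol and control and for 9.5% between NC and control. With NC the level was 0.363 times that of control, a log2 fold change of -1.46 (SE 0.26), the value for which *CASS4* is taken to have been chosen. Relative to control it was -0.96 (SE 0.25) with gag-pol and -0.14 (SE 0.24) with gag. The control libraries spread widely: without control replicate 3, the difference with gag turned to 0.16 and that with NC was -1.16. The difference with gag-pol was -0.68 without control replicate 3 and -0.60 when gag-pol replicate 3 was left out.

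The comparison of *CASS4* between gag-pol and gag compares neither group of the contrast taken to have chosen it, although the control and NC libraries enter the replicate terms and the spread of the fit. If a contrast with gag-pol or gag libraries chose the gene instead, this test reuses values of that choice. *CASS4* was at -0.82 with gag-pol relative to gag on the log2 scale (SE 0.25, 95% interval -1.34 to -0.30) and lower in 3 of 3 replicate numbers, with an adjusted p of 0.054 in edgeR, which misses the threshold. The adjusted p was 0.040 in DESeq2's Wald test and 0.015 in edgeR with the gag-pol and gag libraries alone, and it passed in edgeR without control replicate 3 (0.027) or NC replicate 2 (0.032). Without replicate number in the model the adjusted p was 0.81 in edgeR at a log2 difference of -0.90, in a fit that called 0 of 17176 genes. When gag-pol replicate 2 was left out the log2 difference was -1.15 (adjusted p = 0.013 in edgeR), and when gag-pol replicate 3 was, it was -0.48 (adjusted p = 0.41 in edgeR). NC and gag-pol differed by -0.50 (SE 0.26) in *CASS4*, which became -0.85 or -0.18 when gag-pol replicate 3 or 2 was left out, and NC and gag by -1.32 (SE 0.26), both given as a description.

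**Figure D3:**
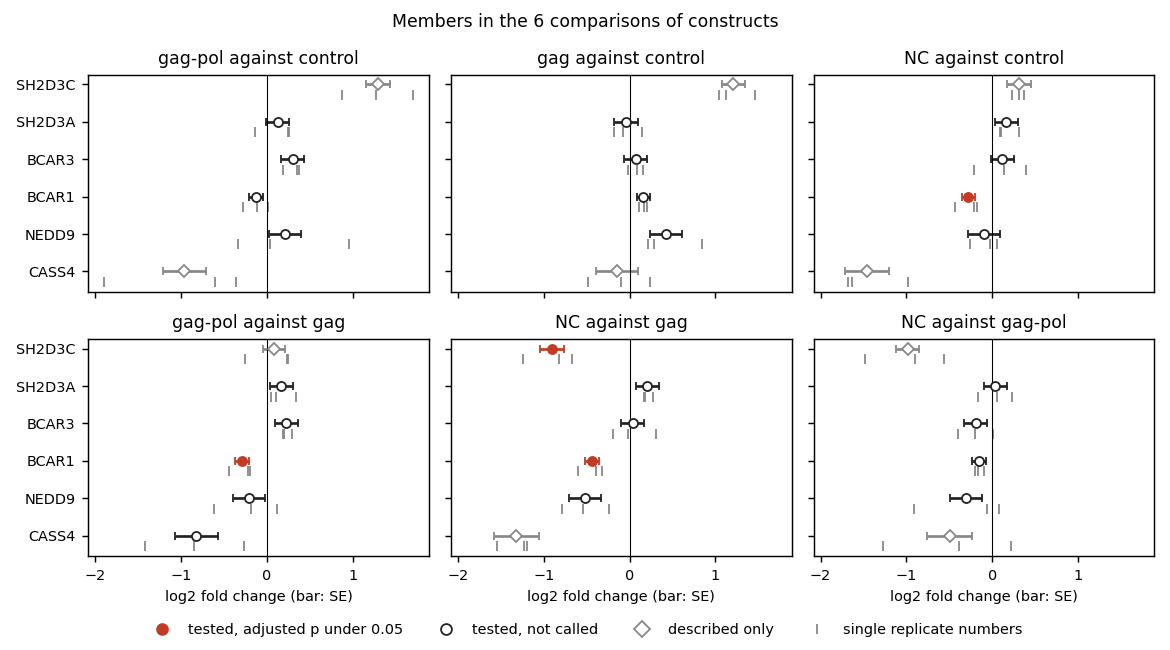
Log2 fold change (x axis) of the 6 members that passed the filter in the 6 comparisons of constructs; bars are standard errors, ticks below each point the values of single replicate numbers, filled circles calls at an adjusted p under 0.05 and diamonds values without a test. *BCAR1* was called lower with NC than with control and gag and lower with gag-pol than with gag, and *SH2D3C* was called lower with NC than with gag.

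*NEDD9*, a CAS scaffold also known as HEF1 that acts in migration and mitosis, was called in no comparison of constructs by edgeR as fitted here or by DESeq2. It was at 4.25, 6.92 and 12.6 CPM in control, 8.33, 7.09 and 9.97 CPM with gag-pol, 7.65, 8.03 and 15.3 CPM with gag and 4.42, 6.81 and 10.5 CPM with NC. The 4 groups overlapped. NC relative to gag was -0.52 on the log2 scale (SE 0.19) and lower in 3 of 3 replicate numbers, with an adjusted p of 0.063 in edgeR and 0.053 in DESeq2. The adjusted p was 0.028 in edgeR without the filter on low counts and also passed without control replicate 3 (0.047) or gag-pol replicate 1 or 3 (0.032 and 0.036). Without replicate number in the model this adjusted p was 0.65 in edgeR at nearly the same difference, in a fit that called 1 of 17176 genes. Relative to control it was 0.42 with gag (SE 0.19, adjusted p = 0.32 in edgeR), which became 0.23 or 0.59 when control replicate 1 or 3 was left out. It was 0.21 with gag-pol (SE 0.19, adjusted p = 0.50 in edgeR) and -0.09 with NC (SE 0.19, adjusted p = 0.80). *EFS*, also named SIN, had 2 to 9 counts in every library and was not tested. Its CPM ran from 0.0495 to 0.235, and gag-pol and gag were the one pair of groups without overlap. Among the genes tested, a set that leaves out *EFS*, 12.7% had no overlap between these groups.

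None of the 4 members tested was called with gag-pol against control, where edgeR called 11.3% of all genes, 5.48% higher and 5.83% lower. Of the 4, 1 (*BCAR3*) had a p-value under 0.05 before adjustment in edgeR, as did 4696 of all 17176 genes. None of the 4 was called with gag against control, where edgeR called 1.08% of all genes, 0.699% higher and 0.384% lower. Here 1 of the 4 (*NEDD9*) had a p-value under 0.05 before adjustment in edgeR, as did 2347 of all 17176 genes. None of the 4 was called between NC and gag-pol, where edgeR called 0.0873% of all genes, 0.00582% higher and 0.0815% lower with NC. No p-value of the 4 was under 0.05 before adjustment in edgeR, where 1704 of all 17176 genes had one. DESeq2 also called none of the 4 in these 3 comparisons, beside 2332 of 15447, 434 of 22950 and 213 of 22950 among all genes.

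Replicate number, a factor that played no part in the choice of members, was tested over all constructs in 1 joint test of the 3 numbers per gene, to which the adjusted p-values here belong. It was taken to mark a shared harvest, as in the study's model, although the labels give no harvest date for a library. In edgeR, 4 of the 6 members differed between replicate numbers, where 52.8% of all genes did. *NEDD9* had the largest of these differences: the adjusted p of the joint test was 7.7e-05 in edgeR, and replicate 3 minus replicate 1 was 0.99 (SE 0.16) and replicate 3 minus replicate 2 was 0.74 (SE 0.16) on the log2 scale. Its values of 9.97 to 15.3 CPM in replicate 3 lay above all others, and the share of all genes separated in this way was not computed. For *BCAR1* the joint adjusted p was 0.00076 in edgeR, with 0.27 (SE 0.07) for replicate 3 minus replicate 1 and 0.32 (SE 0.07) for replicate 3 minus replicate 2. For *CASS4* it was 0.0041 in edgeR, with 0.91 (SE 0.22) for replicate 3 minus replicate 2 and -0.77 (SE 0.22) for replicate 2 minus replicate 1, and replicate 2 was the lowest within control, gag and NC but not within gag-pol. For *SH2D3C* it was 0.046 in edgeR, with 0.31 (SE 0.12) for replicate 3 against either of the others, a call kept in 10 of 19 alternative fits and lost without control replicate 3 (adjusted p = 0.23 in edgeR), among others. *SH2D3A* and *BCAR3* had joint adjusted p-values of 0.91 and 0.74 in edgeR.

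Likeness over the 12 libraries was measured as Pearson's correlation of log2 CPM after the mean of each replicate number had been removed, among 13418 other genes with a mean of at least 1 log2 CPM. The 5 genes most like *SH2D3C* were *KLF6*, a zinc finger transcription factor (r = 0.99), *MAP3K4*, a kinase of stress signaling (0.98), the nucleoporin gene *NUP153* (0.97), the forkhead gene *FOXN2* (0.97) and *USP36*, a nucleolar deubiquitinase (0.97). On the log2 scale, gag-pol, gag and NC differed from control by 0.80, 0.69 and 0.19 in *KLF6* and by 0.56, 0.46 and 0.17 in *USP36*. The other 3 genes were between 0.22 and 0.29 with gag-pol and gag and at or below 0.03 with NC. The 5 genes most like *CASS4* were *EPPK1* (r = 0.98), *DIDO1* (0.97), *PYGM* (0.97), *SREK1* (0.97) and *RFX1* (0.97). Of these, *PYGM*, the muscle glycogen phosphorylase, had log2 differences from control of -1.06, -0.21 and -1.42 for the same 3 constructs. The correlations share libraries and the same 4 groups and are a description.

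The nearest tested genes of *SH2D3C* and *CASS4* on their chromosomes were also read. *TOR2A*, 3004 bases to the left, had log2 differences from control of -0.06 with gag-pol and 0.07 with gag, and *CDK9*, 6969 bases to the right, had -0.06 and 0.10. Further to the right, *FPGS* was at 0.26 with gag-pol (adjusted p = 0.048 in edgeR) and 0.03 with gag. Around *CASS4*, *CSTF1*, 5750 bases to the left, was at 0.28 with gag-pol (adjusted p = 0.040 in edgeR) and 0.04 with NC, and *AURKA*, whose kinase is a mitotic partner of NEDD9, at 0.14 and 0.09. To the right, *GCNT7* was at 0.19 and -0.57 and *FAM209A* at -1.56 (adjusted p = 0.043 in edgeR) and -1.24 (adjusted p = 0.10 in edgeR), where the spans of these 2 genes overlap on opposite strands. The gag-pol calls of *FPGS*, *CSTF1* and *FAM209A* were each lost without any 1 of the 6 gag-pol and control libraries, where their adjusted p-values in edgeR lay between 0.065 and 0.21. *FPGS* kept its call in 4 of 21 alternative fits, *CSTF1* in 12 of 21 and *FAM209A* in 11 of 20. Because the strand setting of the counting is not given, reads of antisense genes cannot be told apart from those of the members. Annotated genes on the opposite strand share 1.62% of the exon bases of *SH2D3C*, 3.08% of those of *CASS4* and 1.86% of those of *BCAR3*. They share 0.512% of those of *NEDD9*, 0.185% of those of *BCAR1* and 8.81% of those of *EFS*. In *BCAR1*, 8.57% of the exon bases also belong to a gene on the same strand.

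Of 39 genes whose products work with NSP and CAS proteins, all of which were tested, 1 rose and 2 fell with gag-pol, none was called with gag and 1 rose with NC, by edgeR against control. That is 7.69%, 0% and 2.56% of the list, where 11.3%, 1.08% and 11.2% of all genes were called. Before adjustment 7, 5 and 8 of them had a p-value under 0.05 in edgeR, in the same order. So did 4696, 2347 and 4650 of all 17176 genes. DESeq2 called 4, 0 and 1 of the list, beside 2332 of 15447, 434 of 22950 and 2394 of 15006 among all genes. With no replicate number in the model edgeR called none with gag-pol or NC, where it called 2 of 17176 genes in each. Between NC and gag edgeR called 5 of the 39, that is 12.8% against 16.9% of all genes. *EGFR* (0.37), the ephrin receptor gene *EPHA4* (0.36), the integrin gene *ITGB1* (0.24) and *PXN* (0.23), which encodes paxillin, were higher with NC, and the adaptor gene *CRK* (-0.23) was lower, on the log2 scale. All 5 calls were lost in edgeR without NC replicate 1 (adjusted p between 0.072 and 0.29) and with the gag and NC libraries alone (0.051 to 0.12). Between gag-pol and gag 1 of the 39 was called, *TRIP6* (-0.28, adjusted p = 0.041 in edgeR), or 2.56% against 6.46% of all genes, and this call was lost without any 1 of the 6 gag-pol and gag libraries (0.064 to 0.16). None was called between NC and gag-pol, where 3 had a p-value under 0.05 before adjustment in edgeR, as did 1704 of all 17176 genes. DESeq2 called 0 of the list there, beside 213 of 22950 among all genes. These 6 calls were named after their values were seen. The median log2 difference from control of the list was 0.03, -0.01 and 0.06 for gag-pol, gag and NC, and that of all genes tested was 0.00 in each. The median absolute difference was 0.10, 0.07 and 0.08 in the list and 0.18, 0.13 and 0.18 over all genes.

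With gag-pol the kinase gene *SRC*, whose product phosphorylates CAS proteins, rose by 0.26 on the log2 scale (SE 0.08, adjusted p = 0.044 in edgeR). It went from 73.5, 101 and 91.8 CPM in control to 94.0, 104 and 120 CPM, higher in 3 of 3 replicate numbers although the groups overlapped. *TRIP6* and *AJUBA*, which encode LIM domain proteins of focal adhesions, were lower with gag-pol in 3 of 3 replicate numbers. *TRIP6* fell by 0.37 (SE 0.08, adjusted p = 0.0056 in edgeR), from 183, 137 and 173 CPM to 143, 114 and 124 CPM, and *AJUBA* fell by 0.34 (SE 0.10, adjusted p = 0.034 in edgeR), from 38.1, 27.7 and 31.5 CPM to 27.5, 25.5 and 23.1 CPM. With NC the receptor gene *EGFR* rose by 0.45 (SE 0.12, adjusted p = 0.019 in edgeR), from 15.5, 30.6 and 20.1 CPM to 20.4, 35.2 and 34.2 CPM. Its value with gag-pol was 0.36 (SE 0.12, adjusted p = 0.058 in edgeR). All 4 calls were lost when control replicate 3 was left out, with adjusted p-values in edgeR of 0.21 for *SRC*, 0.056 for *TRIP6*, 0.18 for *AJUBA* and 0.15 for *EGFR*. Besides, *SRC* and *AJUBA* lost theirs without control replicate 1 or gag-pol replicate 1 or 3, *SRC* also without any 1 gag library, with upper-quartile factors (0.057), without robust estimation (0.054) and with the compared groups alone (0.12), *AJUBA* also with the compared groups alone (0.067), and *EGFR* without NC replicate 1 or 3. No gene of the CRK adaptors, exchange factors, small GTPases or phosphatases in the list was called by edgeR in the 3 comparisons with control.

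**Figure D4:**
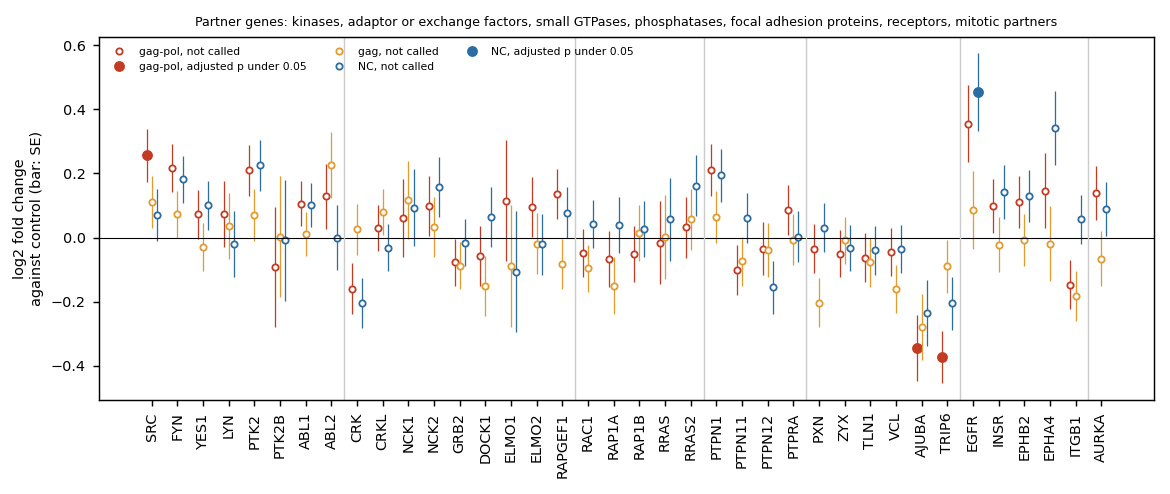
Log2 difference from control (y axis) of partner genes, grouped by role between vertical lines, for gag-pol, gag and NC; bars are standard errors and filled points calls at an adjusted p under 0.05. *SRC*, *AJUBA* and *TRIP6* were called with gag-pol and *EGFR* with NC.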

How the data were processed

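The deposited table holds raw counts per gene symbol for 12 libraries. Per the paper's methods and the labels, the authors mapped read pairs to GRCh38.p13 with STAR 2.7.3, sorted them with SAMtools 1.8 and counted them with featureCounts. The annotation release, strand setting and handling of reads with several locations are not given in the sources used here.

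Counts were fitted with edgeR 4.0.16 (limma 3.58.1, R 4.3.3). Genes with low counts were removed by edgeR's filterByExpr, by construct, with a minimum count of 10 and a minimum total count of 15. There the minimum count acts as a CPM cutoff, to be reached in as many libraries as a construct has. After TMM scaling a robust quasi-likelihood fit was made on construct and replicate number, which the study's model of construct and harvest date led to. Replicate numbers come from the sample titles. After removal of construct means, same-numbered libraries of different constructs correlated at 0.14 to 0.54 in all 18 pairs, so they were treated as paired. Standard errors come from the fitted weights and the posterior quasi-dispersion, and intervals use its degrees of freedom. The scripts were tested on simulated data. DESeq2 1.42.0 and other settings were alternatives. Positions and exon lengths are from GENCODE release 44, start windows from RefSeq (6 of 7 members matched, not *CASS4*), read in Python 3.11.15 with pandas 2.3.3 and drawn with matplotlib 3.10.9.

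Members and lists were chosen with earlier results of these data known. Named are the members, *PEG10*, up to 3 partner genes with the largest changes among those called per comparison with control, the 5 genes most like *SH2D3C* and *CASS4*, and their 2 nearest tested genes on each side. Of these lists, 1 partner gene, counted but left out of the plot, and 1 neighbouring gene are not reported here.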

Additional observations from a re-analysis of the deposited data

How the results depend on the processing

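The member differences between constructs, the counts of calls and the called partner and neighbouring genes were recomputed with DESeq2, with RLE and upper-quartile factors, without *PEG10*, without the filter on low counts or with at least 10 counts in every library, without robust estimation, with the libraries of the compared groups alone, without replicate number in the model and without each library in turn. Without the replicate block, 0 members were called by edgeR between NC and control, gag-pol and gag, and NC and gag, and 0 partner genes with gag-pol and with NC, in fits that called at most 2 of 17176 genes, so these counts say nothing particular to the lists. *SH2D3C* was then higher with gag than with NC by 0.90 with an adjusted p of 0.40 in edgeR. Leaving out the block changed no other member call between constructs. *CASS4* with gag-pol relative to gag was called under DESeq2 (-0.81, adjusted p = 0.040), without the filter (-0.82, adjusted p = 0.015 in edgeR) and with the compared groups alone (-0.86, adjusted p = 0.015 in edgeR). Thus 2 members were called there under each of these 3 settings. Among all genes 1560 of 15447, 1531 of 22950 and 2628 of 16517 were called, in the same order, beside 1109 of 17176 in the main fit. With the compared groups alone 1 partner gene was called with gag-pol (1131 of 16539 among all genes) and 2 with NC (2100 of 16426). Without the filter 2 were called with NC (2311 of 22950). The cause was not tested.

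Without 1 library, the members called ranged from 0 to 1 between NC and control, where 367 to 2369 of all genes were called, 0 to 2 between gag-pol and gag (122 to 1849) and 2 to 3 between NC and gag (940 to 3556), and the partner genes called from 0 to 5 with gag-pol (737 to 2445 of all genes) and 0 to 3 with NC. Likeness, family sums and levels per length were computed once. Log2 differences ranged from 0.76 to 0.99 for *SH2D3C* gag minus NC, 1.11 to 1.48 for *SH2D3C* with gag-pol, -1.64 to -1.16 for *CASS4* with NC and -1.15 to -0.48 for *CASS4* gag-pol minus gag. Values that changed sign ran from -0.021 to 0.24 for *BCAR3* with NC against control and -0.10 to 0.16 against gag, -0.33 to 0.16 for *CASS4* with gag against control, -0.072 to 0.44 for *NEDD9* with gag-pol against control and -0.51 to 0.011 against gag, -0.27 to 0.068 for *NEDD9* with NC against control, -0.12 to 0.04 for *SH2D3A* with gag against control and -0.057 to 0.12 with NC against gag-pol, and -0.11 to 0.27 for *SH2D3C* with gag-pol against gag. Depth limits *EFS*, with 2 to 9 counts in a library, and *CASS4*, with 42 to 307.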
